A study of Mus musculus with 6 samples.

Results

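Messenger RNA of 10 genes linked to neutrophils and to alarmin release was followed in mouse skin: S100a8, S100a9, Stfa1, Stfa2, Stfa3, Lcn2, Cxcr2, Retnlg, Csf3r and Cxcl5. They were taken by symbol from a table of 27179 genes, and all 10 were found. They were chosen by earlier results in the same libraries, so their values are given as a description. Where a fit over all genes calls a member, that call is not independent evidence. Of the 10, 9 passed the filter on low counts. Stfa1 did not, with 0 to 6 counts in any library.

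The mice were BALB/c females between 6 and 8 weeks old. The EHP-101 library was made from skin of mice that received both bleomycin and EHP-101, which is a cannabidiol aminoquinone formulated for oral use. Each of the 3 ajulemic acid libraries came from skin of mice that received bleomycin and the synthetic cannabinoid ajulemic acid. The bleomycin library came from skin given bleomycin alone, a DNA-damaging agent used to produce scleroderma-like dermal fibrosis, and the control library from control skin. Among the labelled samples, the EHP-101, bleomycin and control groups thus had 1 library each, numbered replicate 3, and no replicate check. A deposited table also held 6 columns for further samples, which were not used here. Doses, times and the number of animals per library were not given in the labels, so the EHP-101 and ajulemic acid values stand side by side with no comparison between the drugs. The libraries held 14291592 to 19837682 counts.

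S100a8 and S100a9 encode calcium-binding proteins that pair into calprotectin, an alarmin that neutrophils store and that stressed keratinocytes also make. The stefin A genes of the mouse encode inhibitors of cysteine cathepsins and are known from both myeloid cells and epidermis. Lcn2 encodes lipocalin 2, which binds bacterial siderophores and is made by neutrophils, injured epithelium and liver. Cxcl5 encodes a chemokine that attracts neutrophils through the receptor encoded by Cxcr2, Csf3r encodes the receptor for granulocyte colony-stimulating factor, and Retnlg encodes a resistin-like protein of neutrophils.

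The 3 stefin A genes lie close together on chromosome 16 (mm10). Stfa1 lies at chr16:36277148-36285371 on the plus strand, Stfa2 at chr16:36403946-36408363 and Stfa3 at chr16:36450537-36455392, both on the minus strand, and each has 3 exons. S100a8 (chr3:90669071-90670034, plus strand) and S100a9 (chr3:90692633-90695691, minus strand) are neighbours with 3 exons each. Because the stefin A genes have close copies, the start of the coding sequence is shown for the pair with most counts. These are the first 60 of 309 coding bases of each gene from the GENCODE transcripts, on the minus strand of chromosome 16, with the 12 positions that differ in capitals.
Stfa3: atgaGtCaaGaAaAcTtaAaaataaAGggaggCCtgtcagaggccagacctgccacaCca
Stfa2: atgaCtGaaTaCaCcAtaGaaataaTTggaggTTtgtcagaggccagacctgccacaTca
Over the whole coding sequence Stfa2 and Stfa3 were 80.9% identical in a global alignment. None of the 363 stretches of 50 bases, the read length, in the Stfa3 transcripts occurred in a transcript of another gene, as counted on GENCODE. For Stfa2 the share was 15.9% of 422, and for Stfa1 22.5% of 710. The genes that shared stretches with Stfa1 were its relatives Cstdc5 (BC100530 in GENCODE) and Cstdc6 (BC117090). In the bleomycin library Cstdc5 had 1277 counts and Stfa1 had 6. Whether reads of Cstdc5 were counted as Stfa1 was not tested. S100a8, S100a9, Lcn2 and Retnlg shared 0, and Cxcl5 0.871%. Csf3r shared 11.1% with 190 genes and Cxcr2 4.01% with 107. The sources used here do not say how reads with several matches were counted, and therefore values of Stfa1, Stfa2 and, to a lesser extent, Csf3r and Cxcr2 are uncertain.

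Promoter windows, from 250 bases before to 50 after the start, are shown for 4 stefin A and S100 members. Each had its highest level in the bleomycin library, though S100a8 stayed under 2-fold above control. Stfa1 is not shown because it had at most 6 counts. They are from RefSeq on GRCm38.p6, which held a window for 9 of the 10 genes, and read 5′ to 3′ on the strand of the gene. Capitals mark matches on either strand to TTNNGNAA (a C/EBP-type motif), TGANTCA (AP-1) or TTCNNNGAA (STAT).
Stfa3, chr16:36455343-36455642, minus strand: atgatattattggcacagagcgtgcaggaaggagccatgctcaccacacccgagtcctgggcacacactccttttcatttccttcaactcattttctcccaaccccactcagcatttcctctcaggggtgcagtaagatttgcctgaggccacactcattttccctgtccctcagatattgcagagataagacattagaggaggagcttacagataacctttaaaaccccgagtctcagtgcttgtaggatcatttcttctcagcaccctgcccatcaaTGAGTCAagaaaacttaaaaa
Stfa2, chr16:36408314-36408613, minus strand: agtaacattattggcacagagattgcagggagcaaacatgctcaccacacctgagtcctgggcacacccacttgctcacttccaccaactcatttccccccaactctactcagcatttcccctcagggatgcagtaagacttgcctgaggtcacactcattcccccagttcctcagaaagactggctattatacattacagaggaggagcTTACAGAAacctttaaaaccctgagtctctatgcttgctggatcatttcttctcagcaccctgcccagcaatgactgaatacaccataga
S100a9, chr3:90695672-90695971, minus strand: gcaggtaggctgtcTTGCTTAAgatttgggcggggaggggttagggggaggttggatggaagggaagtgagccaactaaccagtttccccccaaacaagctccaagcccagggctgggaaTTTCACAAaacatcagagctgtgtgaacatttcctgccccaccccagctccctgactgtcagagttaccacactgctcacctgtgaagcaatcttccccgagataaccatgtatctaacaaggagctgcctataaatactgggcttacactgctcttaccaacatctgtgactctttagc
S100a8, chr3:90668821-90669120, plus strand: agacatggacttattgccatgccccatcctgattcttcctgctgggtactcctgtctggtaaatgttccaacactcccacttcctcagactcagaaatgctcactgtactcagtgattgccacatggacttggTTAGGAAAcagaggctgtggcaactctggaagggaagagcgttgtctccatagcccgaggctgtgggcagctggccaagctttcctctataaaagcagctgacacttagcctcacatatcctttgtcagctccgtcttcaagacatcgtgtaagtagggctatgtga
The Stfa2 and Stfa3 windows were 80.9% identical, and those of S100a8 and S100a9 45.5%, which is near the 45.3 to 48.8% between the S100 and these stefin windows. S100a8 and Stfa2 had 1 C/EBP-type match each and S100a9 had 2, a motif held by 40.7% of all 32851 windows of this length. The 1 AP-1 match of Stfa3, a motif held by 7.81% of the windows, began 30 bases into the transcript and overlapped the start codon. The STAT motif, held by 8.30% of the windows, had 0 matches in these 4 windows. A match describes these letters and shows no binding.

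Stfa3 spanned the widest range of levels among the 9 genes that passed the filter. Levels are CPM, counts scaled to a library size that was adjusted with TMM. Stfa3 reached 2.14 CPM in the EHP-101 library, 3.82, 9.12 and 2.24 CPM in ajulemic acid libraries 1, 2 and 3, 58.2 CPM in the bleomycin library and 2.50 CPM in the control library. The bleomycin library stood far above every other, ajulemic acid library 2 was next, and the EHP-101 library and ajulemic acid library 3 were as low as the control library. The ratio of bleomycin to control was 23.3 (95% counting interval 16.9 to 33.2), from 907 and 38 counts. With EHP-101 the level was 27.3-fold lower than with bleomycin alone (19.4 to 39.4). The ajulemic acid mean of 5.06 ± 3.60 CPM (SD, n = 3) was 11.5-fold lower than the bleomycin value, and single libraries lay at 0.0386 to 0.157 of it. Without ajulemic acid library 2 the log2 ratio to bleomycin was -4.26, in place of -3.52. Counting intervals cover counting error only, not differences between mice or preparations. In bulk skin, fewer cells of a type and less RNA per cell cannot be told apart.

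Stfa2 was likewise highest in the bleomycin library and second in ajulemic acid library 2. It had 0.610 CPM in the EHP-101 library, 0.614, 1.03 and 0.848 CPM in the ajulemic acid libraries, 3.66 CPM in the bleomycin library and 0.788 CPM in the control library. The bleomycin to control ratio was 4.64 (2.46 to 9.50), and only the bleomycin library lay apart from the rest. With EHP-101 the ratio to bleomycin was 0.167 (0.0760 to 0.330), and with ajulemic acid 0.227 for the mean of 0.831 ± 0.210 CPM (SD, n = 3). Stfa1 had 6 counts in the bleomycin library, 1 each in ajulemic acid libraries 1 and 2, and 0 in ajulemic acid library 3, the EHP-101 library and the control library. With 0 counts set to a floor of 3 per library, it came to 1.95-fold higher in the bleomycin library than in the control library. On the same floor it came to 2.1-fold lower with EHP-101 than with bleomycin alone. This floor is a convention, and the counting intervals overlapped: 0.141 to 0.838 CPM with bleomycin, up to 0.242 in control and up to 0.225 with EHP-101. The ajulemic acid ratio used no floor, so the drug ratios of Stfa1 are not on the same scale. The ratio of ajulemic acid to bleomycin, from 2 and 6 counts, was 0.109 (0.00983 to 0.557), and its log2 value was -2.62 without library 3, in place of -3.20.

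S100a9 also peaked in the bleomycin library, and S100a8 far less. S100a9 had 2.62 CPM in the EHP-101 library, 3.82, 7.74 and 2.69 CPM in the ajulemic acid libraries, 16.2 CPM in the bleomycin library and 3.55 CPM in the control library. As for Stfa3, ajulemic acid library 2 came second and the EHP-101 and control libraries were low. The bleomycin to control ratio was 4.58 (3.40 to 6.26), the EHP-101 to bleomycin ratio 0.162 (0.114 to 0.224), and the ajulemic acid mean of 4.75 ± 2.65 CPM (SD, n = 3) was 0.293 of bleomycin. S100a8 had 3.84 CPM in the EHP-101 library, 3.68, 4.30 and 4.34 CPM in the ajulemic acid libraries, 6.80 CPM in the bleomycin library and 4.14 CPM in the control library. Its bleomycin to control ratio of 1.64 (1.19 to 2.28) stayed under 2-fold, and the counting intervals of the other 5 libraries overlapped. The EHP-101 to bleomycin ratio was 0.565 (0.407 to 0.779), and the ajulemic acid mean of 4.11 ± 0.369 CPM (SD, n = 3) was 0.604 of bleomycin.

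**Figure D1:**
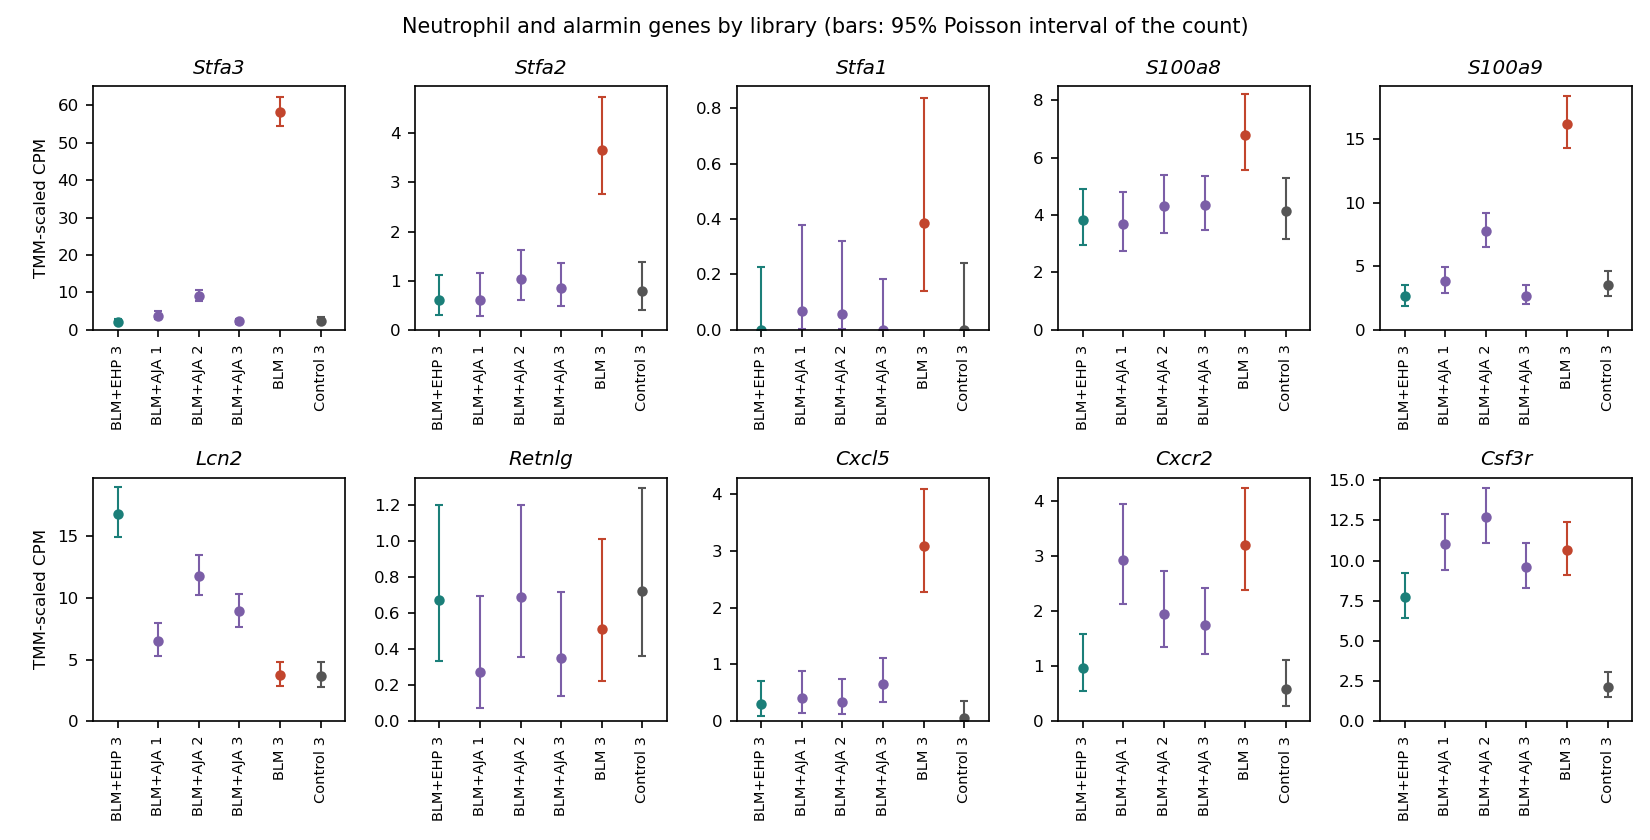
Level of each of the 10 genes (TMM-scaled CPM, vertical axis, own scale per panel) in each library (horizontal axis); points are libraries and bars are 95% Poisson intervals of the count. Stfa3, Stfa2, S100a9 and Cxcl5 are highest in the bleomycin library, Csf3r is lowest in the control library at 2.17 CPM, and Lcn2 is highest in the EHP-101 library at 16.8 CPM.

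The 2 calprotectin subunits therefore did not keep a fixed proportion. S100a9 gave 40.6% of the summed S100a8 and S100a9 counts in the EHP-101 library (95% Wilson interval 31.7 to 50.1%), 50.9, 64.3 and 38.3% in the ajulemic acid libraries, 70.5% in the bleomycin library (65.6 to 75.0%) and 46.2% in the control library (37.4 to 55.2%). The shares in the bleomycin library and ajulemic acid library 2 were the highest, and their intervals overlapped each other. A second share was taken over the counts of Stfa1, Stfa2 and Stfa3 only, without stefin A relatives such as Cstdc5, given below. Of these counts Stfa3 gave 77.8% in the EHP-101 library (63.7 to 87.5%) and 84.8, 89.3 and 72.6% in the ajulemic acid libraries. It gave 93.5% in the bleomycin library (91.8 to 94.9%) and 76.0% in the control library (62.6 to 85.7%). These shares follow from the unequal rises given above and are no separate evidence.

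**Figure D2:**
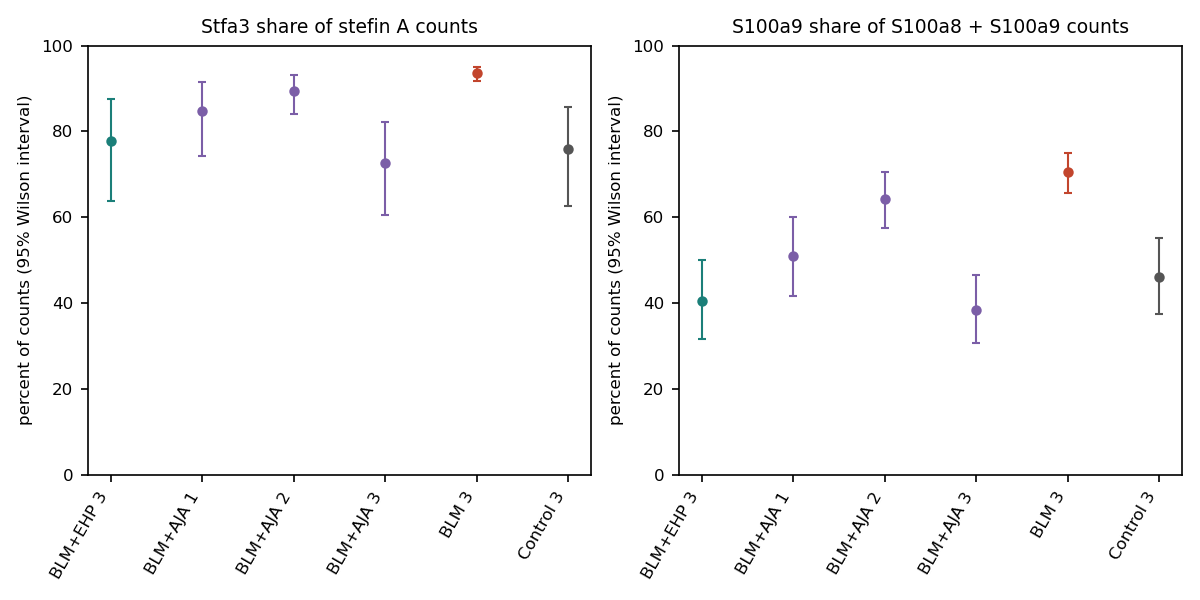
Share of Stfa3 among Stfa1, Stfa2 and Stfa3 counts (left) and of S100a9 among S100a8 and S100a9 counts (right) in each library, in percent with 95% Wilson intervals. The bleomycin library has the highest share in both panels, 93.5% and 70.5%.

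Cxcl5, the ligand, had the largest ratio of bleomycin to control, but on few counts. It had 0.305 CPM in the EHP-101 library, 0.409, 0.344 and 0.648 CPM in the ajulemic acid libraries, 3.08 CPM in the bleomycin library and 0.0657 CPM in the control library, the last from 1 count. The ratio was 46.9 with an interval of 8.02 to 1890. With EHP-101 the ratio to bleomycin was 0.0991 (0.0308 to 0.248), and the ajulemic acid mean of 0.467 ± 0.160 CPM (SD, n = 3) was 0.152 of bleomycin. The bleomycin library stood alone, and the treated libraries lay below it and above the control library, though the EHP-101 to control ratio of 4.64 had an interval of 0.520 to 220.

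Csf3r, a receptor gene, did not follow this order. It had 7.75 CPM in the EHP-101 library, 11.1, 12.7 and 9.63 CPM in the ajulemic acid libraries, 10.7 CPM in the bleomycin library and 2.17 CPM in the control library. All 5 bleomycin-exposed libraries lay above the control library, with or without a drug. The bleomycin to control ratio was 4.91 (3.37 to 7.37), the EHP-101 to control ratio 3.57 (2.42 to 5.41), and the ajulemic acid mean of 11.1 ± 1.55 CPM (SD, n = 3) was 5.14-fold above control. Against bleomycin alone, EHP-101 gave 0.728 (0.573 to 0.922) and ajulemic acid 1.05, with libraries at 0.904 to 1.20.

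Cxcr2, the receptor gene for this ligand, had 0.976 CPM in the EHP-101 library, 2.93, 1.95 and 1.75 CPM in the ajulemic acid libraries, 3.21 CPM in the bleomycin library and 0.591 CPM in the control library. The bleomycin library and ajulemic acid library 1 were highest, and the EHP-101 to control ratio was 1.65 (0.687 to 4.24). The bleomycin to control ratio was 5.43 (2.64 to 12.6), and the EHP-101 to bleomycin ratio was 0.304 (0.162 to 0.543). The ajulemic acid mean of 2.21 ± 0.634 CPM (SD, n = 3) was 0.689 of bleomycin and 3.74-fold above control.

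Lcn2 differed from the alarmins in its order. It had 16.8 CPM in the EHP-101 library, 6.55, 11.8 and 8.93 CPM in the ajulemic acid libraries, 3.72 CPM in the bleomycin library and 3.68 CPM in the control library. All 4 drug-treated libraries lay above both others, and the bleomycin to control ratio was 1.01 (0.689 to 1.49). The EHP-101 to bleomycin ratio was 4.53 (3.40 to 6.12), and the ajulemic acid mean of 9.08 ± 2.61 CPM (SD, n = 3) was 2.44-fold above bleomycin, with libraries at 1.76-fold to 3.16-fold. As Lcn2 is also a liver gene, hepatocyte transcripts are given beside it. The summed level of 14 hepatocyte genes was 728 CPM in the EHP-101 library and 31.3 to 133 CPM in the ajulemic acid libraries. It was 822 CPM in the bleomycin library and 1148 CPM in the control library. The part of liver transcripts in the Lcn2 differences was not tested. Retnlg stayed at 4 to 12 counts. It had 0.671 CPM in the EHP-101 library, 0.273, 0.688 and 0.349 CPM in the ajulemic acid libraries, 0.513 CPM in the bleomycin library and 0.723 CPM in the control library. No difference in Retnlg was detectable at this depth, with a bleomycin to control ratio of 0.710 (0.248 to 1.94).

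**Figure D3:**
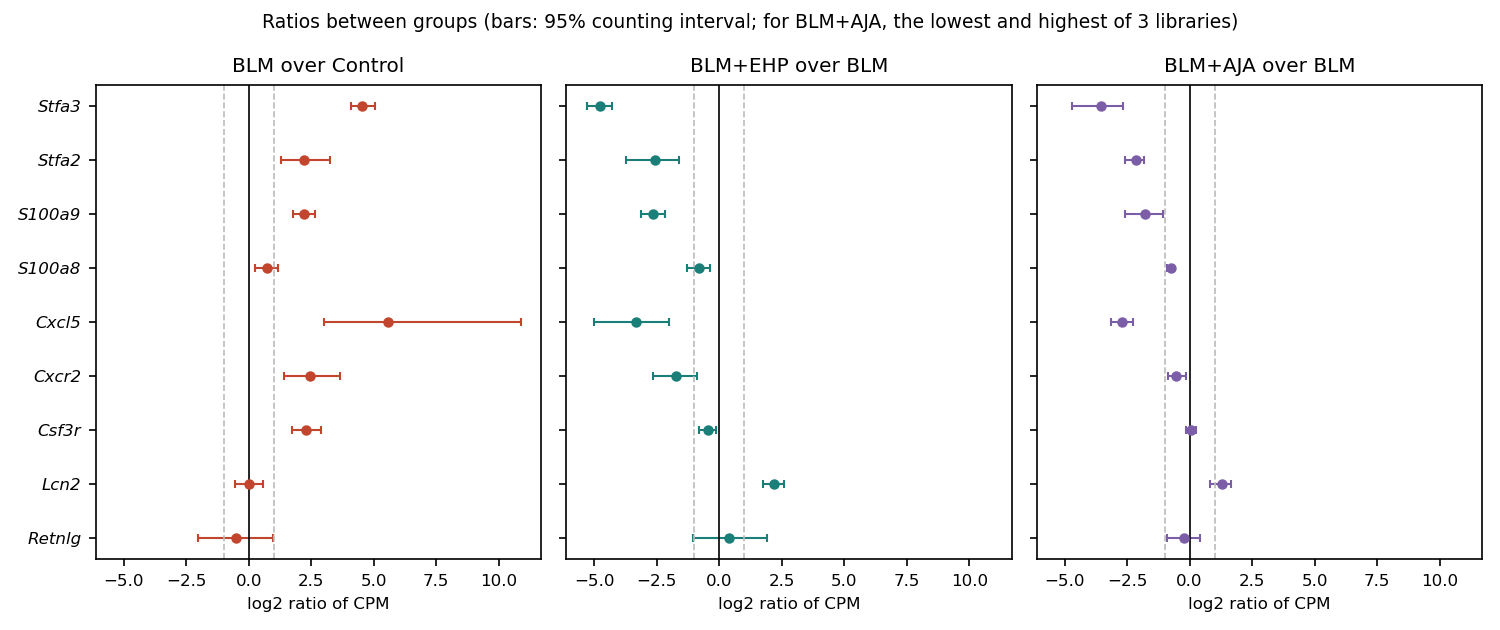
Log2 ratio of CPM for 9 genes in 3 comparisons; points are ratios of library or group mean, bars are 95% counting intervals, or for ajulemic acid the range over its 3 libraries, and dashed lines mark 2-fold. Stfa3 lies at 4.54 for bleomycin over control, -4.77 for EHP-101 over bleomycin and -3.52 for ajulemic acid over bleomycin, while Lcn2 lies at 0.02, 2.18 and 1.29.

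Between genes, levels were compared per length as TPM, counts per base of exon scaled to 1 common total. In the EHP-101 library Lcn2 led at 47.9 TPM, above S100a8 at 23.8, S100a9 at 13.04 and Stfa3 at 12.6 TPM. In the bleomycin library Stfa3 led at 315 TPM, above S100a9 at 74.2, S100a8 at 38.7, Stfa2 at 19.3 and Lcn2 at 9.73 TPM, and the other 5 genes were at 1.88 to 5.87 TPM. In the control library S100a8 led at 22.1 TPM, above S100a9 at 15.2, Stfa3 at 12.7 and Lcn2 at 9.01 TPM. The order of these genes thus differed in each of the 3 single libraries. In the ajulemic acid libraries, mean levels were 25.5 ± 16.5 TPM for Stfa3, 22.5 ± 5.18 for Lcn2, 22.4 ± 1.91 for S100a8 and 20.4 ± 9.96 for S100a9 (SD, n = 3), so these 4 did not separate beyond the spread between libraries.

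Counted over the list, 6 of the 10 genes were at least 2-fold higher in the bleomycin library than in the control library (Stfa3, Stfa2, S100a9, Cxcl5, Cxcr2 and Csf3r) and 0 were at least 2-fold lower. Among the 17377 genes tested, 7.69% were that much higher and 7.14% that much lower. The median log2 ratio was 2.20 over the 10 genes and -0.01 over all tested. With EHP-101 against bleomycin alone, 1 gene (Lcn2) was at least 2-fold higher and 6 (Stfa1, Stfa2, Stfa3, S100a9, Cxcr2 and Cxcl5) at least 2-fold lower, beside 5.21% and 3.98% of the genes tested. With ajulemic acid against bleomycin alone, 1 gene (Lcn2) was at least 2-fold higher and 5 (Stfa1, Stfa2, Stfa3, S100a9 and Cxcl5) at least 2-fold lower, beside 4.32% and 3.89%. Stfa1 was not among the genes tested and is counted through its floor or its few counts. Without it the lower genes are 5 with EHP-101 and 4 with ajulemic acid. With total counts without TMM, Stfa1 crossed the 2-fold line, which gave 7 higher genes in bleomycin against control and 5 lower with EHP-101. Both sets share the bleomycin library, so their likeness is not independent. As the genes were chosen by these contrasts, nothing is read from the counts.

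Against the control library, 9 genes had a ratio. With EHP-101, 3 were at least 2-fold higher (Lcn2, Csf3r and Cxcl5) and 0 lower, beside 5.47% and 4.51% of the genes tested. With ajulemic acid, 5 were at least 2-fold higher (Stfa3, Lcn2, Cxcr2, Csf3r and Cxcl5) and 0 lower, beside 4.40% and 4.21%. Stfa3 was among these at 2.03-fold through ajulemic acid library 2, with single libraries at 0.899-fold to 3.65-fold, and its log2 ratio was 0.28 without that library, in place of 1.02. S100a8 stood at 0.929 of control with EHP-101 (0.645 to 1.34) and at 0.992 with ajulemic acid. In a fit of all 6 libraries with edgeR's quasi-likelihood test, 0 of the 9 members that passed the filter had an adjusted p under 0.05 in any comparison. Over all genes that fit called 0 (0%) in the 2 comparisons with bleomycin alone, in bleomycin against control and in EHP-101 against control, and 6 (0.0345%) in ajulemic acid against control. At an unadjusted p under 0.05 there were 817 higher and 365 lower genes in bleomycin against control, 100 and 229 in EHP-101 against bleomycin, 108 and 558 in ajulemic acid against bleomycin, and 508 and 298 in EHP-101 against control. DESeq2, which tested 23076 genes in place of 17377, called genes in each of these 4 comparisons, as given in the last section. Stfa3 was among them in the first 3, and Csf3r in the first. For members, which were chosen by earlier results in these libraries, such calls are not independent evidence. Both tools took the spread from the ajulemic acid libraries alone, with 2 residual degrees of freedom, and assumed that the single libraries vary like them. The labels do not say that these 3 came from separate animals, so that spread may not be one between animals.

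The neutrophil label was checked against genes that define the cell. Ly6g, the surface marker used to identify mouse neutrophils, had 0 counts in every library. The floor of 3 counts would be 0.150 to 0.205 CPM. Of 14 neutrophil-defining genes 5 passed the filter on low counts, and 2 of the 5 were at least 2-fold higher and 2 at least 2-fold lower in bleomycin than in control. Their summed level was 25.3 CPM in the EHP-101 library, 33.5, 11.8 and 64.5 CPM in the ajulemic acid libraries, 10.7 CPM in the bleomycin library and 34.6 CPM in the control library. Padi4, an arginine deiminase gene, gave 47.1 to 94.6% of this sum. Padi4 was low where hair keratin transcripts, given below, were low, with 5.97 CPM in the bleomycin library and 29.1 CPM in the control library. Mmp8, neutrophil collagenase, had 1.28 CPM in the bleomycin library and 0.526 CPM in the control library. Mpo, myeloperoxidase, had 1.03 CPM in the bleomycin library and 0.329 CPM in the control library. Ltf, lactoferrin, had 1 count in the bleomycin library and 20 in the control library, and passed the filter through the control library alone. Prtn3, also on the list, had 1.09 CPM in the bleomycin library and 1.58 CPM in the control library. Without Padi4 the sum was 5.61 CPM in the EHP-101 library, 3.49 to 6.25 CPM in the ajulemic acid libraries, 4.68 CPM in the bleomycin library and 5.52 CPM in the control library, with no library far from the rest. Stretches shared with other genes were not counted for Ly6g, so its 0 counts do not decide the label. The other markers are too low and too mixed in direction to decide it, and the genes are called here by their families.

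Genes that neutrophils share with other myeloid cells were counted next. Of 16 listed, 15 passed the filter, and 5 were at least 2-fold higher and 0 lower in the bleomycin library than in control, with a median log2 ratio of 0.76. Markers of other tissues also differed between these libraries, and their part in the myeloid difference was not tested. The sum of 5 skeletal muscle genes was 3294 CPM in the bleomycin library and 1620 CPM in the control library, with 3 genes at least 2-fold higher. The sum of 4 red cell genes was 11.9 CPM in the bleomycin library and 44.7 CPM in the control library. Clec4e, a C-type lectin receptor of activated myeloid cells, had 1.83 CPM in the EHP-101 library, 1.45 to 2.41 CPM in the ajulemic acid libraries, 3.40 CPM in the bleomycin library and 0.329 CPM in the control library. Like Csf3r, it was higher in all 5 bleomycin-exposed libraries than in control. The list's summed level was 186 CPM in the EHP-101 library, 174 to 254 CPM in the ajulemic acid libraries, 258 CPM in the bleomycin library and 137 CPM in the control library. Against bleomycin alone 0 of these genes were at least 2-fold higher and 2 lower with EHP-101 (median -0.53), and 0 and 1 with ajulemic acid (median -0.11). Of 10 macrophage genes 1 was at least 2-fold higher and 0 lower in the bleomycin library than in control, with a median log2 ratio of 0.13.

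Upstream signals and receptors were counted in the same way. Among 16 cytokines and chemokines that draw neutrophils 8 passed the filter, and Il17a had 0 counts in every library. Of the 8, 4 were at least 2-fold higher and 2 lower in the bleomycin library than in control. The 2 lower genes, Cxcl15 and Ppbp, passed the filter through the control library alone. They had 104 and 11 counts there, and at most 5 and 3 in any other library. Their direction therefore follows from the filter and is not read as a result. Il1f9, listed in some annotations as Il36g and encoding an epidermal interleukin-1 family cytokine, had 19.4 CPM in the EHP-101 library, 41.1, 39.0 and 17.9 CPM in the ajulemic acid libraries, 54.0 CPM in the bleomycin library and 16.9 CPM in the control library. Cxcl15, a chemokine best known from mouse lung, ran the other way, with 0.321 CPM in the bleomycin library and 6.83 CPM in the control library. Of 9 receptors for alarmins and related ligands 8 passed the filter and 1 was at least 2-fold higher and 1 lower. Tlr4, a receptor for calprotectin, had 27.3 CPM in the EHP-101 library, 20.9 to 40.3 CPM in the ajulemic acid libraries, 27.4 CPM in the bleomycin library and 27.1 CPM in the control library.

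Genes that keratinocytes switch on in stressed or wounded epidermis were also listed. Of 15 listed, 13 passed the filter, with Il1f9 also in the preceding cytokine list. In bleomycin against control 8 were at least 2-fold higher and 0 lower, with a median log2 ratio of 1.67. Of the 8, Serpinb3a passed the filter through the bleomycin library alone, with 13 counts there. With EHP-101 against bleomycin 0 were at least 2-fold higher and 10 lower (median -1.60), and with ajulemic acid 0 and 5 (median -0.94). Krt6b, a keratin of wounded epidermis, had 5.67 CPM in the EHP-101 library, 4.57, 59.4 and 2.49 CPM in the ajulemic acid libraries, 101 CPM in the bleomycin library and 2.96 CPM in the control library. It was highest in the bleomycin library and second in ajulemic acid library 2, the order seen for Stfa3 and S100a9. Krt6b had the largest bleomycin to control ratio of the list. Among the list's genes of highest mean level, Krt17 was lower in the bleomycin library, at 502 CPM against 741 CPM in the control library. In the same libraries Krt6a had 257 and 158 CPM, Ivl 112.7 and 96.65 CPM, and Rptn 249 and 33.05 CPM. Transcripts of hair follicle keratins went the opposite way to Krt6b, and their part in the alarmin differences was not tested. Their sum over 9 genes was 6156 CPM in the EHP-101 library, 7009, 354 and 15750 CPM in the ajulemic acid libraries, 605 CPM in the bleomycin library and 7817 CPM in the control library. The bleomycin library and ajulemic acid library 2, with the highest Stfa3 and S100a9, thus had the lowest hair keratin sums.

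Relatives of the members did not all move with them. Among 15 other S100 genes 11 passed the filter, and 0 were at least 2-fold higher and 3 lower in the bleomycin library than in control (median -0.35). S100a3, a protein of the hair cuticle, had 231 CPM in the EHP-101 library, 244, 19.3 and 493 CPM in the ajulemic acid libraries, 17.9 CPM in the bleomycin library and 363 CPM in the control library. It was low in the bleomycin library and ajulemic acid library 2, as the hair keratins were. Among 11 other stefin and cystatin genes 7 passed the filter, and 2 were at least 2-fold higher and 0 lower. Of the 2, Cstdc6 passed the filter through the bleomycin library alone, with 20 counts there. Cstdc5, a stefin A relative on chromosome 16 that GENCODE lists as BC100530, had 2.99 CPM in the EHP-101 library, 5.93, 23.8 and 2.89 CPM in the ajulemic acid libraries, 81.9 CPM in the bleomycin library and 4.86 CPM in the control library. Its coding sequence was 79.3% identical to that of Stfa3 and its promoter window 74.1%. Of its 570 stretches of 50 bases, 33.5% occurred in other genes, namely Stfa1, Csta1 and Cstdc6, and none in Stfa3. Csta1, another stefin A relative, differed less, with 60.7 CPM in the bleomycin library and 42.3 CPM in the control library. Of 3 resistin-like relatives of Retnlg 2 passed. Retnla, a product of alternatively activated macrophages and adipose tissue, had 4.11 CPM in the bleomycin library and 77.3 CPM in the control library.

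The genes most like Stfa3 and S100a8 were found by the distance between log2 CPM profiles over the 6 libraries, each centred on its mean, among 16794 named genes outside the list. Nearest to Stfa3 were Cstdc5 (distance 0.853), Mmp13 (0.953), Rptn (1.61), Gsdmc (1.62) and Sprr2a3 (1.69), nearer than any member, of which S100a9 was closest at 1.89. Mmp13, a collagenase, had 0.671 CPM in the EHP-101 library, 0.750, 1.78 and 0.698 CPM in the ajulemic acid libraries, 10.8 CPM in the bleomycin library and 0.723 CPM in the control library. Rptn encodes repetin of the cornified envelope, and its level was 15.9 CPM in the EHP-101 library, 25.6 to 45.0 CPM in the ajulemic acid libraries, 249 CPM in the bleomycin library and 33.1 CPM in the control library. Nearest to S100a8 were Aatk (0.149), Rpl17-ps10 (0.175), Adam19 (0.183), Pvt1 (0.195) and Zfand4 (0.211). Among members that passed the filter, Retnlg was closest to S100a8 at 1.11, with S100a9 at 1.69 and Stfa3 at 3.45. S100a8 spans little, 0.85 on the log2 scale against 4.65 for Stfa3, so many genes lie near it. The 6 libraries include 3 of 1 group, and such distances describe these libraries only.

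**Figure D4:**
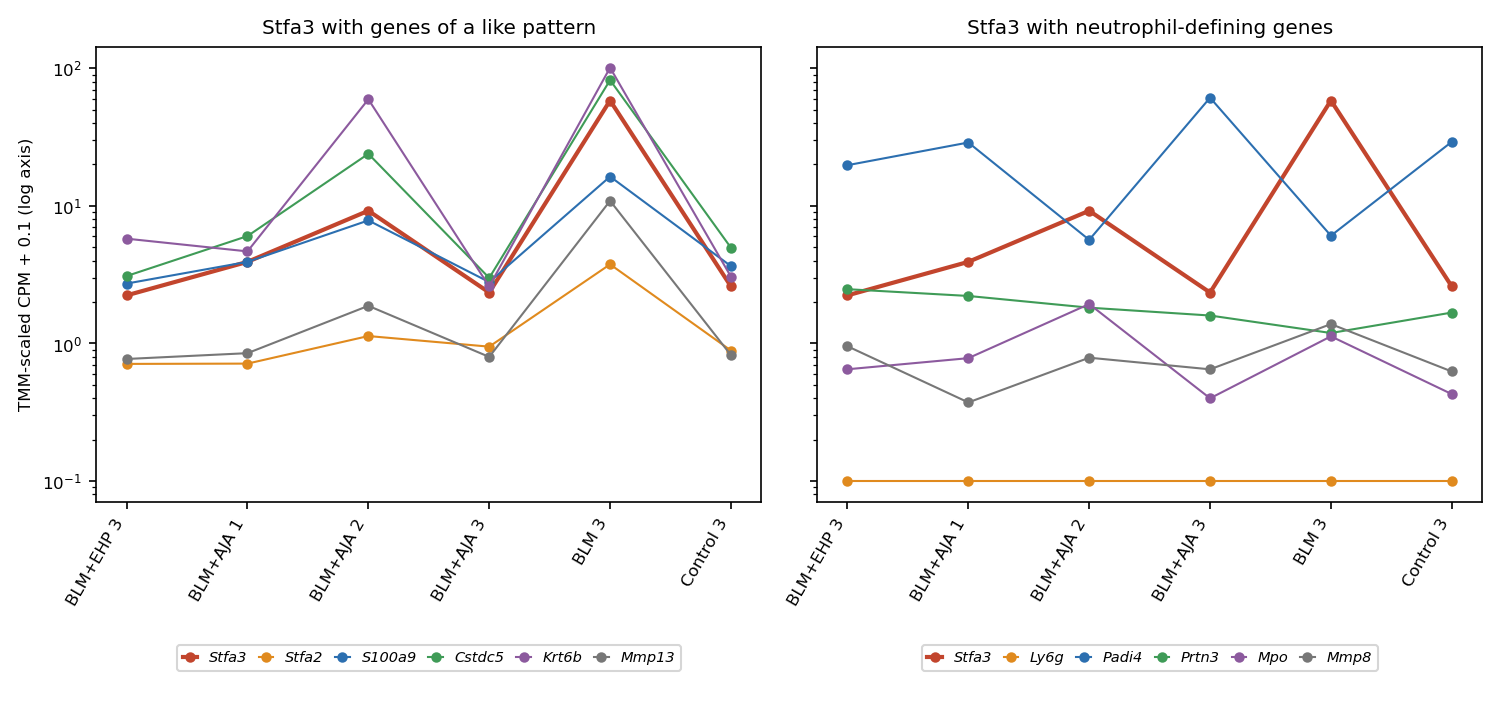
Level in each library (TMM-scaled CPM plus 0.1, log axis) of Stfa3 with Stfa2, S100a9, Cstdc5, Krt6b and Mmp13 (left) and with neutrophil-defining genes (right); each point is 1 library and lines join points of a gene for reading only. Stfa3 and the genes on the left are highest in the bleomycin library and second in ajulemic acid library 2. Ly6g is at 0 throughout and Padi4 is low in these 2 libraries at 5.97 and 5.56 CPM. The genes on the left were picked for likeness to Stfa3, so their shared order is no separate evidence. Krt6b is not among the 5 genes nearest to Stfa3.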

How the data were processed

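Total RNA of mouse skin was sequenced in 6 libraries, from 300 ng per sample as single-end reads of 50 bp after ribosomal RNA depletion with a stranded kit, per the labels' protocols. Trimmomatic 0.36, HISAT2 2.1.0, featureCounts 1.6.1, DESeq2 1.20.0 and mm10 are named, per the submitters' processing notes. The authors deposited raw counts per gene with the summed exon length, per the file headers. For the strand setting and for reads that match several genes, the treatment is not given in the sources used here. A second table held the same counts for these libraries (0 differing values). The 6 columns it has for further samples were left out because they match no sample of the labels.

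Counts were scaled with TMM in edgeR 4.0.16 (R 4.3.3) after filterByExpr (minimum count 10). As the smallest groups hold 1 library, this filter keeps genes that are high in 1 library alone, which favours 2-fold calls there. The main test was the quasi-likelihood test (two-sided, Benjamini-Hochberg) in 1 fit of all libraries, and it was tested on simulated data. Ratios are of CPM or of group mean CPM, and 2-fold was the size used for calls. Gene numbers were matched to RefSeq symbols (25275) or GENCODE symbols (18), and 1886 had none. Intervals are exact Poisson for levels, exact conditional binomial for ratios and Wilson score for shares. All are at 95% and for counting error only. The pairs of ajulemic acid libraries differed beyond sampling noise (chi-square per degree of freedom 35.0 to 124), so each was counted. Sequences were aligned with Biopython 1.88.

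The members and gene lists were chosen with earlier results of these data known. All 10 members are named, and so are the 5 tested genes nearest in profile to S100a8 and to Stfa3. Other names come from the 4 genes of highest mean CPM in each list. They also come from the 1 gene per list with the largest bleomycin to control ratio, in either direction, among genes with at least 10 counts. Only some of these list genes are named, so the named ones do not stand for their list. Ly6g and Il17a are named because they had 0 counts. Ppbp, Serpinb3a and Cstdc6 are named because 1 library alone took them past the filter. Alternatives were DESeq2 1.42.0, other scalings, no filter and leaving out each ajulemic acid library.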

Additional observations from a re-analysis of the deposited data

How the results depend on the processing

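Under DESeq2 size factors, total counts without TMM, and library sizes without mitochondrial ribosomal RNA and hepatocyte genes, 144 recomputed log2 ratios of members moved by at most 0.13, and 2 of them, both of Stfa1 under total counts, crossed 2-fold. Leaving out each ajulemic acid library gave 57 ratios, of which 3 moved by over 1.5 times. These were Stfa3 without replicate 2, at -4.26 against bleomycin (in place of -3.52) and 0.28 against control (in place of 1.02), and Stfa1 without replicate 3, at -2.62 against bleomycin (in place of -3.20). Total counts without TMM moved the median log2 ratio of all tested genes by 0.13 in EHP-101 against control. Without ajulemic acid replicate 2, 1 member (Retnlg, at -1.22 in place of -0.73) was at least 2-fold lower in ajulemic acid against control, in place of 0. Leaving out each ajulemic acid library gave a median member log2 ratio of 0.28 to 1.31 there, in place of 1.02, the lowest without replicate 2. The number of genes called over the whole table depended on the fit. Leaving out each ajulemic acid library gave 0 to 177 genes in bleomycin against control, 0 to 92 in ajulemic acid against bleomycin, 0 to 91 in EHP-101 against control and 0 to 367 in ajulemic acid against control. The low ends came without replicate 1 and the high ends without replicate 3. With no filter on low counts, edgeR called 41 genes in ajulemic acid against bleomycin and 153 in ajulemic acid against control. DESeq2 called 164 genes in bleomycin against control, 10 in EHP-101 against bleomycin, 104 in ajulemic acid against bleomycin, 121 in EHP-101 against control and 271 in ajulemic acid against control. DESeq2 and the fit with no filter tested 23076 genes, and the fits without 1 ajulemic acid library 17315 to 17384. DESeq2 called Stfa3 in bleomycin against control and in both drugs against bleomycin, and Csf3r in bleomycin and in ajulemic acid against control. Without replicate 2, Stfa3 was called in ajulemic acid against bleomycin. Without replicate 3, Csf3r and Cxcl5 were called in bleomycin against control, and Csf3r in ajulemic acid against control. With no filter, Csf3r was called in ajulemic acid against control. As the members were chosen by earlier results in these libraries, calls on them are not independent evidence. The cause of the differences between fits was not tested. No paired analysis was possible because the groups share only replicate number 3. Single libraries of bleomycin, EHP-101 and control limit every ratio, and Stfa1, Retnlg and Cxcl5 rest on few counts.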
